A study of Mus musculus with 3 samples.

Results

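The genes described here are 10 imprinted growth genes: H19, Igf2, Plagl1, Meg3, Rian, Mirg, Kcnq1ot1, Cdkn1c, Peg3 and Grb10. They were taken by symbol from the 32285 genes of the feature list, and all 10 were found. The set was chosen by measured values, namely a low H19 level in the fibroblasts of MI-DAPA and a high one in endocardial nuclei, so those H19 values are given as a description and support nothing. The levels came from single-nucleus RNA sequencing of the mouse heart, 2 weeks after the operation, with 3 libraries and no replicate of any. MI-DAPA was the heart with myocardial infarction and dapagliflozin, an inhibitor of the glucose cotransporter SGLT2 that is used against diabetes and heart failure. MI-NS was the heart with myocardial infarction and NS, and Sham-NS the heart with sham surgery and NS, a term that the labels do not expand. MI-DAPA and MI-NS share the infarction, and MI-NS and Sham-NS share NS. The labels give no strain, genotype, age, sex, dose, hour of collection or number of animals per library, nor the part of the heart taken, so each library is 1 specimen of its condition. The series names heart failure and macrophage inflammation under dapagliflozin as its subject, and the comparisons below ask how these 10 genes differed in MI-DAPA from MI-NS and in MI-NS from Sham-NS.

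In an imprinted gene only the copy from the mother or the copy from the father is active, as set by methylation marks laid down in egg or sperm. Many such genes lie in clusters under 1 control region, and as a group they are known for tuning growth before birth: several copies active from the father promote growth, and several active from the mother restrain it. Several of them are high in the fetal mouse heart and are turned down after birth. Which parental copy gave the RNA cannot be read from these counts.

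A level below is the number of distinct RNA molecules (UMIs) of a gene, summed over the nuclei of a cell class in a library, per 1000000 UMIs of that class (CPM). Brackets after levels, shares and log2 ratios are 95% intervals, exact Poisson, Clopper-Pearson and exact conditional binomial in that order. They cover counting error only: with 1 library per group no spread between hearts could be had and no test was made. A gene was called measurable in a contrast with at least 50 UMIs over both libraries, and called apart at a ratio of at least 2-fold. Counts were made at the 3' end of transcripts and not per length, so levels are compared for 1 gene at a time.

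After filtering, 4827 nuclei of MI-DAPA, 6235 of MI-NS and 7010 of Sham-NS were in clusters with a cell class name, and 13 classes were named. Library totals were between 8871086 and 13873275 UMIs, the median depth of kept nuclei between 790 and 851 UMIs, and pairs of libraries shared 13 to 20 barcodes. There were 31 combinations of class and library with at least 50 nuclei, and 9 classes reached 50 nuclei in all 3 libraries. Fibroblast-like nuclei numbered 1346 in MI-DAPA, 2036 in MI-NS and 1764 in Sham-NS, and all 12 fibroblast markers were at least 2-fold above the other nuclei, as were all 12 cardiomyocyte markers in cardiomyocyte-like nuclei. Endocardial-like nuclei, from the lining of the heart chambers, numbered 75, 121 and 284 in MI-DAPA, MI-NS and Sham-NS, with 7 of 8 markers past that fold (Nfatc1 was not). MI-NS stood apart from both other libraries in the nuclear RNA Malat1, at 5.29% of UMIs in MI-DAPA, 8.57% in MI-NS and 4.53% in Sham-NS, and in its mesothelial-like nuclei, which numbered 16 in MI-DAPA, 448 in MI-NS and 14 in Sham-NS. The median mitochondrial share of kept nuclei was lowest in MI-NS, at 2.42% in MI-DAPA, 1.48% in MI-NS and 3.32% in Sham-NS. The part of that difference in the levels below was not tested. Since Malat1 differed, ratios of MI-DAPA against MI-NS and of MI-NS against Sham-NS were also computed per Malat1 UMI in fibroblast-, cardiomyocyte-, vascular endothelial- and endocardial-like nuclei, and the text says where a direction turns or a ratio crosses 2-fold there. Ratios in other classes and those of MI-DAPA against Sham-NS were not computed on that scale.

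H19 and Plagl1 were highest in endocardial-like nuclei in each library, with intervals above the next class, and Igf2 was highest there on few UMIs. Kcnq1ot1 also had its highest class level there in each library, with an interval that overlapped the next class in Sham-NS. Peg3 did so in MI-DAPA and Sham-NS, with overlap in both. H19 is a long noncoding RNA active from the maternal copy, and Igf2, a fetal growth factor active from the paternal copy, is its neighbour. H19 (ENSMUSG00000000031) lies at chr7:142575529-142578143 on the minus strand of mm10, with 72622 bases to Igf2 (ENSMUSG00000048583) at chr7:142650766-142666816 on the same strand. Plagl1 (ENSMUSG00000019817), at chr10:13060504-13131694 on the plus strand, is a paternally active zinc finger factor that is known in mouse to bind and activate other imprinted genes, H19 and Igf2 among them. H19 is also the precursor of miR-675, and an intron of Igf2 holds miR-483. These microRNAs are shown because they are what the cell cuts from the 2 transcripts, with their seed (bases 2 to 8) in capitals, from RefSeq (GRCm38.p6); their own levels were not measured by this assay.
mmu-miR-675-5p: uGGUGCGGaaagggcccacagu
mmu-miR-675-3p: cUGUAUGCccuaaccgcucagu
mmu-miR-483-5p: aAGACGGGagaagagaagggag
mmu-miR-483-3p: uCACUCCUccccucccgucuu
The 4 seeds differ from each other, and none was shared with any other microRNA inside the 10 genes.

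In endocardial-like nuclei H19 stood at 427 CPM (286 to 614) in MI-DAPA, 227 (156 to 318) in MI-NS, with 148 (110 to 196) in Sham-NS. These levels rest on 29 UMIs in 13 of 75 nuclei (17.3%), 33 UMIs in 16 of 121 nuclei (13.2%) and 49 UMIs in 25 of 284 nuclei (8.80%). With each nucleus thinned to 500 UMIs the shares were 14.7% (7.56 to 24.7), 7.44% (3.46 to 13.7) and 5.63% (3.25 to 8.99), and these intervals overlap. The interval of the CPM level of MI-DAPA lay above that of Sham-NS and overlapped that of MI-NS. It takes each UMI as independent, although some UMIs came from the same nucleus. The log2 ratio was 0.92 (0.14 to 1.68) for MI-DAPA against MI-NS, 0.62 (-0.07 to 1.28) for MI-NS against Sham-NS and 1.54 (0.81 to 2.22) for MI-DAPA against Sham-NS; the sign of the value for MI-NS against Sham-NS turned per Malat1 UMI, to -0.18, and that of MI-DAPA against MI-NS passed 2-fold, at 1.48. With classes read from the marker level of each nucleus, MI-DAPA against MI-NS came to 0.00. The 8 endocardial markers of this class summed to 7249 CPM in MI-DAPA, 5046 in MI-NS and 4433 in Sham-NS, the same order as H19. The part of that difference in the H19 levels was not tested.

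Endocardial-like nuclei were 1.55%, 1.94% and 4.05% of the named nuclei of MI-DAPA, MI-NS and Sham-NS, and they held 67.4%, 28.7% and 67.1% of the H19 UMIs. All other named nuclei stood at 2.23 CPM in MI-DAPA, 11.8 in MI-NS and 3.07 in Sham-NS. The log2 ratio of endocardial-like over other nuclei was thus 7.56, 4.28 and 5.58, with a mean of 5.80. A normal approximation gave that mean an interval of 5.38 to 6.23 for counting error only. The ratios of MI-DAPA and MI-NS lay outside it, so the mean is no common value of the libraries. Endocardial-like nuclei had the highest level in each library, and MI-NS had the most H19 elsewhere. In macrophage-like nuclei, a cell type that should lack it, H19 had a UMI in 0 of 360 nuclei of MI-DAPA, which, taking 3 nuclei as the limit, allows a share of nuclei with a UMI of up to 0.833%, in 0.356% of MI-NS and in 0.263% of Sham-NS, at median depths of 590.5, 655 and 633.5 UMIs. The endocardial-like medians were 761, 1000 and 945 UMIs. H19 had 0 UMIs in 10 of the 31 combinations of class and library, among them the B-like, T or NK-like and adipocyte-like nuclei of MI-NS.

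Plagl1 in endocardial-like nuclei stood at 324 CPM (203 to 491) in MI-DAPA, 611 (491 to 752) in MI-NS, with 312 (255 to 378) in Sham-NS, and had a UMI in 17.3%, 38.0% and 27.5% of nuclei. MI-NS was the high library, with an interval that touched that of MI-DAPA at its edge and lay above that of Sham-NS. The log2 ratios were -0.89 (-1.66 to -0.23) for MI-DAPA against MI-NS and 0.97 (0.54 to 1.39) for MI-NS against Sham-NS. Both directions turned with classes read from marker levels, to 0.53 and -0.67. Both RNAs were found in 2 nuclei of MI-DAPA, 5 of MI-NS and 8 of Sham-NS. Of the 75, 121 and 284 endocardial-like nuclei, 13, 46 and 78 had Plagl1 and 13, 16 and 25 had H19. Whether these overlaps differ from those of 2 unrelated sparse genes was not tested. The ratio of endocardial-like over other nuclei was 6.41, 5.47 and 5.41 on the log2 scale for Plagl1. Outside the endocardium its highest level was in the adipocyte-like nuclei of MI-NS, at 96.6 CPM (57.3 to 153).

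Igf2 was close to silent, with 73 UMIs in all barcodes, and was measurable in no contrast. Endocardial-like nuclei had 2 UMIs in MI-DAPA, 7 in MI-NS and 12 in Sham-NS, which gives 29.5 CPM (3.57 to 106), 48.1 (19.3 to 99.0) and 36.3 (18.8 to 63.5), and these intervals overlap. The endocardial-like level was the highest of any class in each library, but its interval overlapped that of the next class in all 3, and 13 of the 31 combinations had 0 UMIs. Vascular endothelial-like nuclei had 1 UMI in MI-DAPA, 0 in MI-NS and 9 in Sham-NS. Of those 9, 7 lay in the cluster led by Sema3g, Eps8l2 and Sox17, whose level in Sham-NS was 51.4 CPM (20.7 to 106), above the endocardial-like value but overlapping it.

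**Figure D1:**
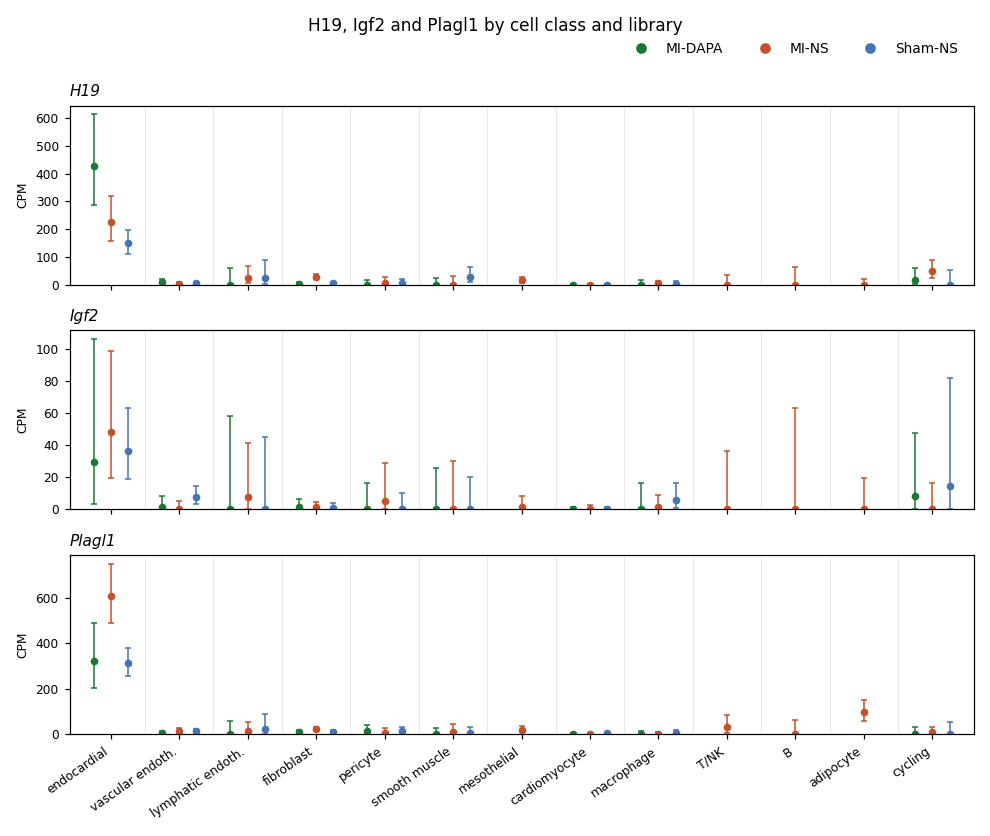
Levels of H19, Igf2 and Plagl1 in CPM (linear axes) in each cell class with at least 50 nuclei in a library; points are the class sums of MI-DAPA, MI-NS and Sham-NS and bars are 95% Poisson intervals. The endocardial-like nuclei stand above the rest for H19 (427, 227 and 148 CPM) and Plagl1 (324, 611 and 312 CPM), while the Igf2 intervals are wide.

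Fibroblast-like nuclei, which make the scar matrix, had H19 at 3.65 CPM (0.99 to 9.34) in MI-DAPA, 29.3 (21.9 to 38.4) in MI-NS, with 4.51 (1.65 to 9.81) in Sham-NS. The counts were 4, 52 and 6 UMIs, in 2, 26 and 6 nuclei. MI-NS was high and its interval lay apart from both others, which overlapped; this low MI-DAPA level is what the genes were picked for. The log2 ratio was -2.85 (-4.93 to -1.56) for MI-DAPA against MI-NS and 2.60 (1.48 to 4.21) for MI-NS against Sham-NS. The share of nuclei with a UMI, 0.149%, 1.28% and 0.340%, was close to that of macrophage-like nuclei in MI-DAPA and Sham-NS and above it in MI-NS.

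The fibroblast-like class was made of 3 clusters that the libraries filled unevenly. The cluster led by Slc34a1, Duox1 and Gli1 had 790 nuclei of MI-DAPA, 721 of MI-NS and 355 of Sham-NS. The cluster led by Col11a1, Matn4 and Comp had 451, 1294 and 5, and the cluster led by Gsta3, Col6a6 and Lvrn had 105, 21 and 1404. H19 in MI-NS came from the Comp-led cluster, whose leading genes encode matrix proteins of cartilage and tendon. There were 3 UMIs in 1 of 451 nuclei of that cluster in MI-DAPA (7.65 CPM, 1.58 to 22.4), against 48 UMIs in 22 of 1294 nuclei in MI-NS (41.5 CPM, 30.6 to 55.0). Within that cluster the log2 ratio of MI-DAPA against MI-NS was -2.23 (-4.77 to -0.80). The Slc34a1-led cluster had 1 UMI in MI-DAPA, 4 in MI-NS and 1 in Sham-NS. Without the Comp-led cluster MI-NS against Sham-NS came to 0.57. The 22 nuclei of MI-NS had 54 UMIs of the scar gene Postn and 21 of Comp, and 0 UMIs of the endocardial markers Npr3 and Cytl1. The 8 endocardial markers summed to 373 CPM in them and to 177 CPM in the other nuclei of that cluster and library, against 4920 CPM in the endocardial-like nuclei of MI-NS without H19; the part of such nuclei in the result was not tested. Of the 22 nuclei 1 had a Plagl1 UMI, where 28 of the 1294 nuclei of that cluster and library did.

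Plagl1 followed the same order in fibroblast-like nuclei, with 9.12 CPM (4.37 to 16.8) in MI-DAPA, 23.1 (16.6 to 31.3) in MI-NS, with 9.76 (5.2 to 16.7) in Sham-NS. The intervals of MI-NS and of the other libraries overlapped slightly. The log2 ratio was -1.29 (-2.50 to -0.32) for MI-DAPA against MI-NS and 1.21 (0.31 to 2.27) for MI-NS against Sham-NS, and both fell short of 2-fold per Malat1 UMI, at -0.56 and 0.47. Unlike H19, Plagl1 was close between these libraries within the Comp-led cluster. It stood there at 25.5 CPM (12.2 to 46.9) in MI-DAPA, on 10 UMIs, and 28.5 (19.6 to 40.0) in MI-NS, on 33. The Slc34a1-led cluster had 0 Plagl1 UMIs in MI-DAPA, 8 in MI-NS and 0 in Sham-NS. Besides fibroblast-like nuclei, H19 outside the endocardium was seen in the cycling-like nuclei of MI-NS, with 11 UMIs (49.7 CPM, 24.8 to 88.9), of which 7 came from 1 nucleus, and in its mesothelial-like nuclei, with 10 UMIs (15.3 CPM, 7.33 to 28.1).

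**Figure D2:**
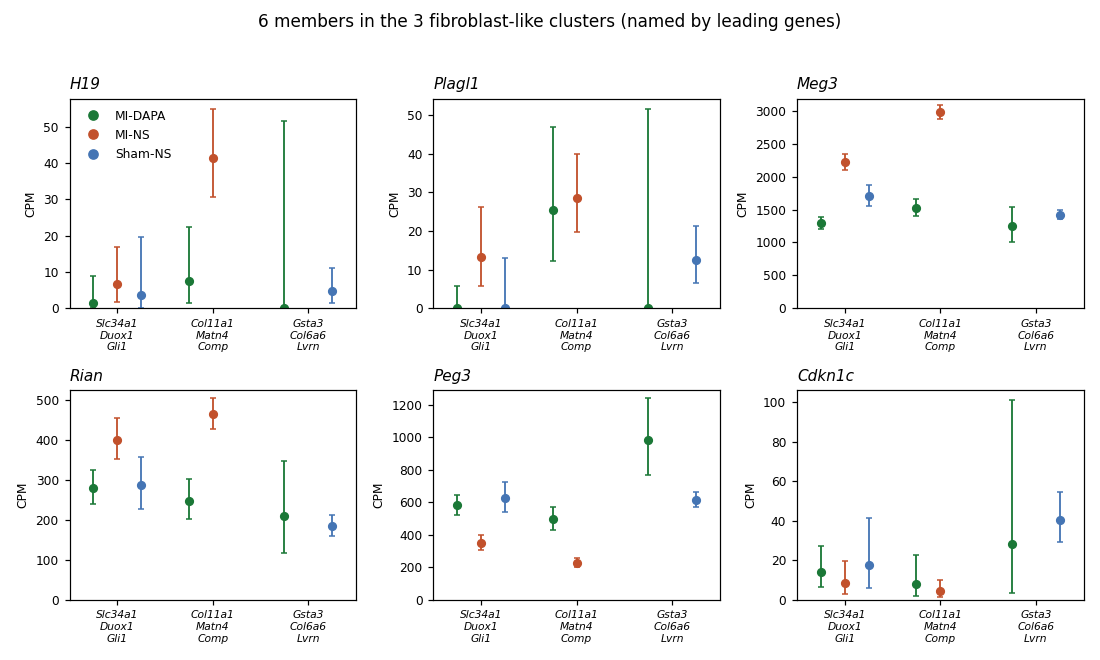
Levels in CPM (linear axes) of 6 of the genes in the 3 fibroblast-like clusters, written by their leading genes, for MI-DAPA, MI-NS and Sham-NS where a library had at least 50 nuclei in the cluster; bars are 95% Poisson intervals. H19 is high in the Comp-led nuclei of MI-NS (41.5 CPM), while Meg3 is higher and Peg3 lower in MI-NS within both clusters that it fills.

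Meg3, Rian and Mirg are noncoding RNAs that follow each other on chromosome 12 in the domain named for Dlk1 and Dio3, active from the maternal copy. Meg3 (ENSMUSG00000021268) lies at chr12:109541001-109571726, Rian (ENSMUSG00000097451) at chr12:109603940-109661716 and Mirg (ENSMUSG00000097391) at chr12:109729764-109749460, all on the plus strand, with 32213 and 68047 bases between them. Meg3 is known as a growth-restraining RNA that raises p53 activity in human cells, Rian is the precursor of box C/D snoRNAs, and Mirg is the host of a large microRNA cluster. RefSeq places 26 mature microRNAs inside Mirg, 6 inside Rian and 3 inside Meg3. A few are shown, with the seed in capitals, because they mark which transcript of the domain carries what. The last pair has the 1 seed that any 2 microRNAs inside the 10 genes had in common.
mmu-miR-770-5p (Meg3): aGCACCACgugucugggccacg
mmu-miR-370-3p (Rian): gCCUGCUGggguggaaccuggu
mmu-miR-341-3p (Rian): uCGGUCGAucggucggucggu
mmu-miR-410-3p (Mirg): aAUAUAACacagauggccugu
mmu-miR-134-5p (Mirg): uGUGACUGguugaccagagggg
mmu-miR-453 (Mirg): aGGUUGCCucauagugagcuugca
mmu-miR-496a-5p (Mirg): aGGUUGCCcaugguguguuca

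Meg3 was highest in MI-NS in all 9 classes that could be compared in the 3 libraries, and in each of them its interval lay above both others. In fibroblast-like nuclei it stood at 1375 CPM (1306 to 1446) in MI-DAPA, 2713 (2637 to 2791) in MI-NS, with 1487 (1422 to 1554) in Sham-NS, with a UMI in 47.9%, 66.5% and 54.1% of nuclei. The intervals of MI-DAPA and Sham-NS overlapped there and MI-NS was high. The interval of the log2 ratio of MI-DAPA against Sham-NS still left 0 out, at -0.11 (-0.21 to -0.02). The log2 ratios were -0.98 (-1.06 to -0.90) for MI-DAPA against MI-NS and 0.87 (0.79 to 0.94) for MI-NS against Sham-NS, just short of 2-fold, and they shrank per Malat1 UMI to -0.25 and 0.13.

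The mural cells of vessels had the same order. Pericyte-like nuclei had 846 CPM (731 to 975) of Meg3 in MI-DAPA, 1537 (1367 to 1722) in MI-NS, with 716 (630 to 810) in Sham-NS. Smooth muscle-like nuclei had 320 CPM (234 to 427), 1416 (1214 to 1643) and 313 (237 to 406) in the same libraries. This class also held much cardiomyocyte RNA: the 12 cardiomyocyte markers summed to 132954 CPM in MI-DAPA, 42807 in MI-NS and 108817 in Sham-NS. In pericyte-like nuclei they summed to 6717, 4703 and 9381 CPM. The part of cardiomyocyte RNA in the smooth muscle-like levels was not tested. Lymphatic endothelial-like nuclei had 174 CPM (87.0 to 312) in MI-DAPA, 1333 (1144 to 1543) in MI-NS, with 197 (112 to 319) in Sham-NS, the widest gap of any class. In each of these classes the levels of MI-DAPA and Sham-NS overlapped.

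Classes with little Meg3 were ordered alike. Cardiomyocyte-like nuclei had 15.7 CPM (11.9 to 20.3) in MI-DAPA, 79.6 (68.3 to 92.2) in MI-NS, with 19.3 (15.2 to 24.1) in Sham-NS. Vascular endothelial-like nuclei had 98.9 CPM, 244 and 75.9, and macrophage-like nuclei 83.4, 279 and 92.3, with a UMI in 4.72%, 14.8% and 5.39% of macrophage-like nuclei. Endocardial-like nuclei had 88.4 CPM (32.4 to 192) in MI-DAPA, 474 (369 to 600) in MI-NS and, in Sham-NS, 297 (241 to 362), so that here MI-DAPA lay below Sham-NS as well. Over the 9 classes the log2 ratio of MI-DAPA against MI-NS ran between -2.88 and -0.86, at least 2-fold in 7, and that of MI-NS against Sham-NS between 0.68 and 2.72, at least 2-fold in 7. Among all measurable genes, 4.46% to 17.9% were 2-fold apart in the first contrast and 7.45% to 21.2% in the second, by class. In endocardial-like nuclei the second ratio turned per Malat1 UMI, to -0.12, and in vascular endothelial-like nuclei both fell short of 2-fold, at -0.39 and 0.72. The 2 contrasts share MI-NS, so a value high in that library alone gives both.

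The highest level of Meg3 was in the mesothelial-like nuclei of MI-NS, the cell type that covers the heart, at 5406 CPM (5229 to 5587) with a UMI in 87.1% of 448 nuclei. They held 35.5% of the Meg3 UMIs of MI-NS, and fibroblast-like nuclei held 48.4%. The fibroblast and mesothelial markers were also highest in MI-NS in all 9 classes. In macrophage-like nuclei the 12 fibroblast markers summed to 663 CPM in MI-DAPA, 1560 in MI-NS and 695 in Sham-NS. In cardiomyocyte-like nuclei they summed to 120, 419 and 139 CPM, in vascular endothelial-like nuclei to 470, 1569 and 615, and in smooth muscle-like nuclei to 1288, 3744 and 1022. The 9 mesothelial markers summed to 8.78, 57.1 and 9.42 CPM in macrophage-like nuclei and to 12.8, 61.4 and 6.76 CPM in fibroblast-like nuclei. In macrophage-like nuclei 11 of the 12 fibroblast markers had UMIs in MI-DAPA (Tcf21 was at 0) and all 12 in MI-NS and Sham-NS. Of the 9 mesothelial markers 1 had UMIs there in MI-DAPA, 7 in MI-NS (Lrrn4 and Muc16 were at 0) and 4 in Sham-NS. Other marker lists did not follow: the 12 cardiomyocyte markers were lowest in MI-NS in every one of the 9 classes but the cycling-like nuclei, with 7373 CPM in MI-DAPA, 5319 in MI-NS and 8382 in Sham-NS in macrophage-like nuclei. There the 8 endocardial markers, at 74.7, 109 and 156 CPM, and the 6 erythroid markers, at 74.7, 89.7 and 179 CPM, were highest in Sham-NS. The part of RNA from other cells in the Meg3 levels of these classes was not tested. Within the fibroblast-like clusters, the Slc34a1-led cluster had 1294 CPM in MI-DAPA, 2214 in MI-NS and 1709 in Sham-NS, and the Comp-led cluster 1528 in MI-DAPA and 2980 in MI-NS. The Gsta3-led cluster had 1247 CPM in MI-DAPA and 1422 in Sham-NS. Both cardiomyocyte-like clusters were also high in MI-NS: the one led by Ces1d, Cpeb3 and Wnk2 had 21.8, 71.4 and 18.5 CPM in MI-DAPA, MI-NS and Sham-NS, and the one led by Myh7, Ankrd1 and Mgat5b had 12.1, 81.1 and 28.6.

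Rian followed Meg3, with MI-NS highest in 9 of 9 classes and its interval apart in 6. In fibroblast-like nuclei it stood at 264 CPM (234 to 296) in MI-DAPA, 442 (411 to 474) in MI-NS, with 207 (184 to 233) in Sham-NS. Here the 3 intervals lay apart, and MI-DAPA stood between the others: the log2 ratios were -0.74 (-0.94 to -0.55) for MI-DAPA against MI-NS, 1.09 (0.89 to 1.29) for MI-NS against Sham-NS and 0.35 (0.10 to 0.59) for MI-DAPA against Sham-NS. Within the Slc34a1-led cluster the levels were 280 CPM in MI-DAPA, 400 in MI-NS and 287 in Sham-NS, so that MI-DAPA lay at the sham level there, with a log2 ratio of -0.04 (-0.42 to 0.36), and MI-NS against Sham-NS came to 0.48 (0.11 to 0.86). Pericyte-like nuclei had 173 CPM (123 to 236), 402 (318 to 502) and 111 (79.1 to 152) in MI-DAPA, MI-NS and Sham-NS. Vascular endothelial-like nuclei had 27.8, 70.2 and 18.97 CPM and cardiomyocyte-like nuclei 6.49, 16.6 and 3.25 CPM in the same libraries. Per Malat1 UMI, MI-NS against Sham-NS fell short of 2-fold in fibroblast-like (0.35) and vascular endothelial-like nuclei (0.91), and MI-DAPA against MI-NS in cardiomyocyte-like (-0.72) and vascular endothelial-like nuclei (-0.41). Mesothelial-like nuclei of MI-NS had the most, at 897 CPM (826 to 973).

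Mirg was sparse, with 519 UMIs in all barcodes, and measurable only in fibroblast-like nuclei. It stood there at 47.4 CPM (35.4 to 62.2) in MI-DAPA, 63.7 (52.5 to 76.5) in MI-NS, with 26.3 (18.3 to 36.5) in Sham-NS. MI-DAPA and MI-NS overlapped, and Sham-NS was low. The log2 ratio was -0.42 (-0.93 to 0.06) for MI-DAPA against MI-NS, a sign that turned per Malat1 UMI (0.31) and without the Comp-led cluster (0.07). It was 1.26 (0.72 to 1.87) for MI-NS against Sham-NS, or 0.52 per Malat1 UMI, and 0.85 (0.21 to 1.51) for MI-DAPA against Sham-NS. Within the Slc34a1-led cluster the libraries were alike, at 47.4 CPM in MI-DAPA, 49.8 in MI-NS and 49.5 in Sham-NS. There MI-NS against Sham-NS came to -0.02 (-0.95 to 1.04), on 30 and 14 UMIs. The Gsta3-led cluster had 84.1 CPM in MI-DAPA, on 6 UMIs, and 19.1 in Sham-NS, on 20. The mesothelial-like nuclei of MI-NS were again highest, at 160.5 CPM (131 to 194).

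The 3 transcripts kept rough proportion. In the 14 combinations of class and library with at least 100 Meg3 UMIs there were 13.9 to 28.8 Rian UMIs per 100 Meg3 UMIs, with a median of 19.5, and 1.77 to 4.70 Mirg UMIs, with a median of 2.95. Fibroblast-like nuclei had 19.2 Rian UMIs per 100 Meg3 UMIs in MI-DAPA, 16.3 in MI-NS and 13.9 in Sham-NS. Over the 31 combinations, which share libraries, depth and free RNA, the Pearson correlation of log2(CPM + 10) was 0.92 for Meg3 and Rian, 0.89 for Rian and Mirg and 0.86 for Meg3 and Mirg, given as a description. The same measure put collagen genes nearest to Meg3 among all genes with at least 500 UMIs, with Col16a1 at 0.92 and Col1a2 at 0.90, and Tgfb3 nearest to Mirg at 0.90. For H19 the nearest were Cemip2 and Nrg1, both at 0.82, Npr3 at 0.77, Cdh11 at 0.76 and Vwf at 0.75, and for Plagl1 Nrg1 at 0.88 and Npr3 at 0.86. Npr3 and Cdh11 are in the endocardial marker set and Vwf is a large-vessel and endocardial gene. Among the members themselves H19 and Plagl1 had 0.79, H19 and Igf2 0.76, and Peg3 and Grb10 0.72.

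**Figure D3:**
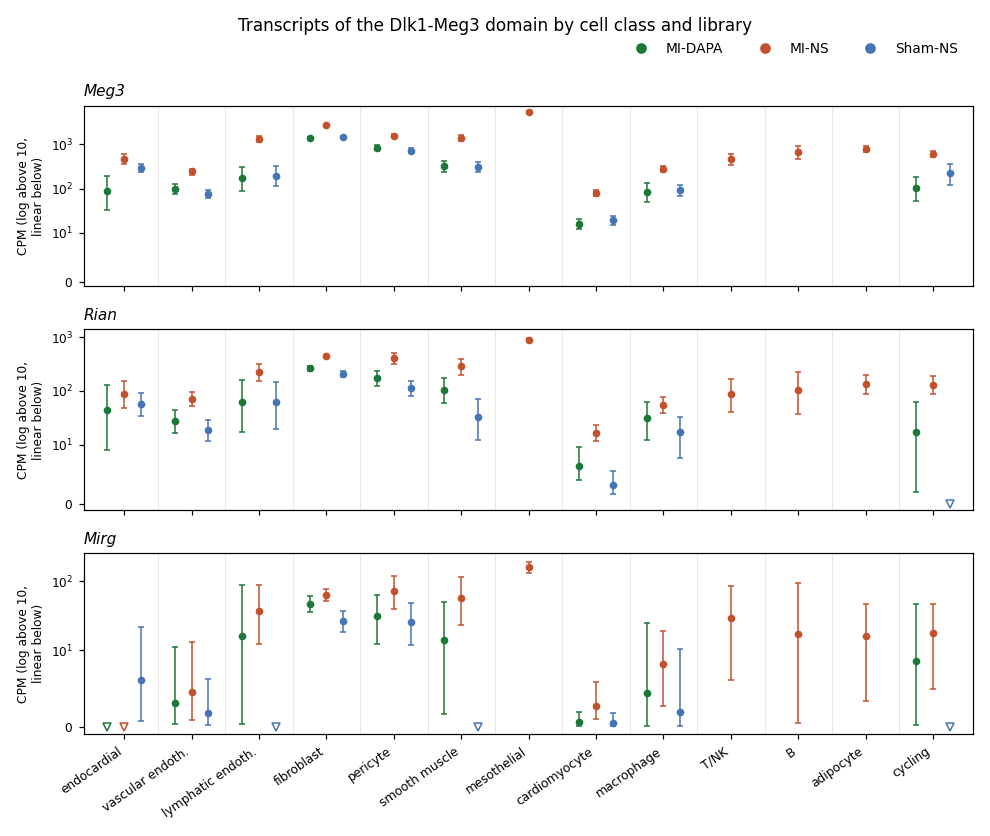
Levels of Meg3, Rian and Mirg in CPM (axis logarithmic above 10 and linear below) in each cell class with at least 50 nuclei in a library, for MI-DAPA, MI-NS and Sham-NS; bars are 95% Poisson intervals and open triangles mark 0 UMIs. MI-NS is the highest library for Meg3 and Rian in all 9 classes with 3 libraries, and mesothelial-like nuclei of MI-NS are highest of all (5406, 897 and 160.5 CPM).

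Kcnq1ot1 and Cdkn1c are the 2 sides of 1 imprinted domain on chromosome 7. Kcnq1ot1 (ENSMUSG00000101609, chr7:143203458-143296549, minus strand) is a long RNA from the paternal copy that silences its neighbours in cis. It lies wholly inside Kcnq1 on the opposite strand, so its counts depend on the strand being read. Cdkn1c (ENSMUSG00000037664, chr7:143458339-143461050, minus strand), 161789 bases away, encodes p57, an inhibitor of cyclin-dependent kinases that is active from the maternal copy and stops cell division.

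Kcnq1ot1 was detected in all 31 combinations and was highest in MI-NS in 9 of 9 classes, apart from both others in 6. Endocardial-like nuclei had 1783 CPM (1479 to 2130) in MI-DAPA, 1785 (1575 to 2016) in MI-NS, with 1157 (1044 to 1279) in Sham-NS. Here both infarcted hearts stood above the sham heart, with log2 ratios of 0.63 (0.32 to 0.92) for MI-DAPA and 0.63 (0.39 to 0.86) for MI-NS, each against Sham-NS. Lymphatic endothelial-like nuclei were alike, at 903 CPM (684 to 1170) in MI-DAPA, 1011 (847 to 1196) in MI-NS, with 504 (361 to 683) in Sham-NS.

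In cardiomyocyte-like nuclei Kcnq1ot1 stood at 172 CPM (159 to 186) in MI-DAPA, 315 (292 to 339) in MI-NS, with 224 (210 to 239) in Sham-NS, with all 3 intervals apart and MI-DAPA lowest. The log2 ratio of MI-DAPA was -0.87 (-1.02 to -0.71) against MI-NS and -0.38 (-0.53 to -0.23) against Sham-NS. The libraries filled the cardiomyocyte-like clusters unevenly: the Ces1d-led one had 731 nuclei of MI-DAPA, 250 of MI-NS and 1520 of Sham-NS, and the Myh7-led one 710, 736 and 86. In the Ces1d-led cluster Kcnq1ot1 stood at 143 CPM in MI-DAPA, 151 in MI-NS and 225 in Sham-NS, so that MI-NS against Sham-NS turned to -0.56 (-1.0 to -0.17) and MI-DAPA against MI-NS was -0.09 (-0.53 to 0.38). In the Myh7-led cluster it stood at 190 CPM, 345 and 213, with 0.69 (0.33 to 1.08) and -0.86 (-1.04 to -0.68) for the same contrasts. Fibroblast-like nuclei had 1230 CPM, 1359 and 1096 in MI-DAPA, MI-NS and Sham-NS, and macrophage-like nuclei 364, 597 and 350. MI-NS against Sham-NS gave a positive ratio in every class but at least 2-fold only in smooth muscle-like nuclei, at 1.14 (0.73 to 1.57), and cycling-like nuclei, at 1.62 (1.06 to 2.29). Per Malat1 UMI it turned negative in the 4 classes where that was computed, at -0.43 in fibroblast-like, -0.22 in cardiomyocyte-like, -0.52 in vascular endothelial-like and -0.17 in endocardial-like nuclei. MI-DAPA against MI-NS turned positive on that scale in fibroblast-like nuclei, at 0.58, and vascular endothelial-like nuclei, at 0.81.

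Cdkn1c was measurable for MI-NS against Sham-NS in vascular endothelial-like and fibroblast-like nuclei, and MI-NS was the lower library in both. In the other classes it rested on too few UMIs to be ordered. In vascular endothelial-like nuclei, its main site by UMIs, it stood at 88.1 CPM (66.7 to 114) in MI-DAPA, 44.8 (30.3 to 64.0) in MI-NS, with 136 (116 to 159) in Sham-NS. The 3 intervals lay apart. The log2 ratio was 0.96 (0.31 to 1.66) for MI-DAPA against MI-NS, -1.58 (-2.22 to -1.03) for MI-NS against Sham-NS and -0.62 (-1.09 to -0.18) for MI-DAPA against Sham-NS. In fibroblast-like nuclei it stood at 12.8 CPM (6.98 to 21.4) in MI-DAPA, 6.2 (3.09 to 11.1) in MI-NS, with 35.3 (25.9 to 46.9) in Sham-NS. Sham-NS was high there, with log2 ratios of -1.43 (-2.44 to -0.58) for MI-DAPA and -2.46 (-3.61 to -1.54) for MI-NS, each against Sham-NS. The Gsta3-led cluster made up most fibroblast-like nuclei of Sham-NS and few of the infarcted hearts. It held 42 of the 47 fibroblast-like Cdkn1c UMIs of Sham-NS (40.2 CPM). In the Slc34a1-led cluster Cdkn1c stood at 14.2 CPM in MI-DAPA, 8.30 in MI-NS and 17.7 in Sham-NS, on 9, 5 and 5 UMIs, with overlapping intervals. MI-NS against Sham-NS was -1.09 (-3.21 to 1.03) there. The part of the Gsta3-led cluster in the difference of the whole class was not tested. Endocardial-like nuclei had 3 UMIs in MI-DAPA, 6 in MI-NS and 32 in Sham-NS, too few to order beyond 44.2 CPM (9.11 to 129), 41.2 (15.1 to 89.7) and 96.9 (66.3 to 137), which overlap. The genes nearest to Cdkn1c over the 31 combinations were Mcf2l at 0.85, Car8, Car4 and Flt1, the last 2 being capillary markers. The lower direction of Cdkn1c in MI-NS held per Malat1 UMI, at -2.54 against Sham-NS in vascular endothelial-like and -3.20 in fibroblast-like nuclei, and MI-DAPA against MI-NS in vascular endothelial-like nuclei passed 2-fold, at 1.87.

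Peg3 (ENSMUSG00000002265, chr7:6703892-6730431, minus strand) is a paternally active zinc finger gene that is known in mouse for growth and for maternal care. Its promoter and that of Meg3 are shown because these 2 abundant genes lay on opposite sides of the other libraries in fibroblast-like nuclei of MI-NS. Each run holds 250 bases before and 50 after the start, from RefSeq (GRCm38.p6), with capitals on 2 motifs: TGACGTCA, the palindromic cAMP response element, and GGGGCCCC, a palindromic form of the site bound by PLAGL1. Overlaps did not occur.
Meg3, chr12:109540746-109541045, plus strand: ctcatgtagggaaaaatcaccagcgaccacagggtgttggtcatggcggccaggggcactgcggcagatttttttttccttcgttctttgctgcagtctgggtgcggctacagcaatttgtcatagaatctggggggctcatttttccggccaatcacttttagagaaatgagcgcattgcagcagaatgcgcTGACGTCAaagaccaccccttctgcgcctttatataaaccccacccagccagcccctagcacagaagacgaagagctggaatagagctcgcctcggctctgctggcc
Peg3, chr7:6730370-6730669, minus strand: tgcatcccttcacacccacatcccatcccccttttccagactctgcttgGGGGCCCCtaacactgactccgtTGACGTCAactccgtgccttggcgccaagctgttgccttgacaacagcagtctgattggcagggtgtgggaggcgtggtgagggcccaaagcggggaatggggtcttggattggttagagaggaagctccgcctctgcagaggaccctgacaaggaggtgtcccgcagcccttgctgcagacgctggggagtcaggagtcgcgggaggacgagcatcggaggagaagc
Both strands were searched for these motifs and for GCCATNTT, the YY1 core. TGACGTCA was in 1.79% of all 32851 promoter windows of that length, GGGGCCCC in 1.08% and GCCATNTT in 6.05%. Of 13 windows of 8 members, the 2 printed were the only ones with any of the 3. A match is a description of these letters and shows no binding.

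Peg3 was lowest in MI-NS in 6 of 9 classes, with its interval below both others in 2, the fibroblast-like and endocardial-like nuclei. Fibroblast-like nuclei had 576 CPM (532 to 623) in MI-DAPA, 270.5 (247 to 296) in MI-NS, with 618 (577 to 662) in Sham-NS, with a UMI in 26.5%, 16.7% and 29.1% of nuclei. MI-DAPA and Sham-NS overlapped and MI-NS lay below both. The log2 ratio was 1.09 (0.92 to 1.27) for MI-DAPA against MI-NS, -1.19 (-1.36 to -1.03) for MI-NS against Sham-NS and -0.10 (-0.25 to 0.05) for MI-DAPA against Sham-NS. The order held within clusters: the Slc34a1-led cluster had 582 CPM in MI-DAPA, 349 in MI-NS and 626 in Sham-NS, and the Comp-led cluster 495 in MI-DAPA and 228 in MI-NS. In the Slc34a1-led cluster the log2 ratios were under 2-fold, at 0.74 (0.49 to 0.99) for MI-DAPA against MI-NS and -0.85 (-1.14 to -0.55) for MI-NS against Sham-NS. In the Gsta3-led cluster MI-DAPA, at 981 CPM, stood above Sham-NS, at 615.

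Endocardial-like nuclei showed the widest gap, at 663 CPM (484 to 887) in MI-DAPA, 158 (100 to 237) in MI-NS, with 636 (553 to 728) in Sham-NS. Again MI-NS alone was low, with log2 ratios of 2.05 (1.31 to 2.86) for MI-DAPA against MI-NS and -1.98 (-2.70 to -1.39) for MI-NS against Sham-NS. Endocardial-like nuclei also differed in fibroblast markers, which summed to 1223 CPM in MI-DAPA, 4284 in MI-NS and 2056 in Sham-NS, the opposite order to Peg3, and in cardiomyocyte markers, at 6306, 2987 and 5514 CPM, the same order as Peg3; the part of either was not tested.

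In vascular endothelial-like and cardiomyocyte-like nuclei MI-DAPA did not stand at the sham level. Vascular endothelial-like nuclei had Peg3 at 172 CPM (141 to 207) in MI-DAPA, 139 (112 to 170) in MI-NS, with 426 (389 to 465) in Sham-NS, and cardiomyocyte-like nuclei at 59.2 CPM (51.6 to 67.6), 70.6 (60.0 to 82.5) and 141 (130 to 153). Both infarcted hearts lay below the sham heart in these classes and overlapped with each other. The log2 ratio of MI-DAPA against Sham-NS was -1.31 (-1.62 to -1.01) and -1.25 (-1.49 to -1.03) there, and within the Ces1d-led cardiomyocyte-like cluster -0.86 (-1.18 to -0.56). Per Malat1 UMI MI-DAPA against MI-NS was 1.21 in vascular endothelial-like nuclei and turned to 0.37 in cardiomyocyte-like nuclei. In pericyte-like and lymphatic endothelial-like nuclei MI-DAPA lay close to Sham-NS, with log2 ratios of 0.07 (-0.37 to 0.50) and, on 11 and 14 UMIs, 0.03 (-1.26 to 1.26). Pericyte-like nuclei had 341, 242 and 325 CPM and smooth muscle-like nuclei 146, 147 and 225, with overlapping intervals. Adipocyte-like nuclei of MI-NS had the highest level, 977 CPM (840 to 1130), with a UMI in 60.7% of 89 nuclei. Macrophage-like nuclei, at 13.2, 29.3 and 52.7 CPM in MI-DAPA, MI-NS and Sham-NS, had the lowest levels of the classes with 3 libraries. The lower Peg3 of MI-NS against Sham-NS held per Malat1 UMI in the 4 classes where that was computed, with log2 ratios of -1.93, -1.70, -2.57 and -2.78 in fibroblast-, cardiomyocyte-, vascular endothelial- and endocardial-like nuclei.

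Grb10 (ENSMUSG00000020176, chr11:11930508-12038683, minus strand) encodes an adaptor that binds the insulin and IGF1 receptors and damps their signal, and it is active from the maternal copy in most tissues. No measurable contrast of a whole class reached 2-fold. Fibroblast-like nuclei had 129 CPM (108 to 152) in MI-DAPA, 100.3 (86.1 to 116) in MI-NS, with 116 (98.8 to 136) in Sham-NS. Cardiomyocyte-like nuclei had 67.8 CPM (59.7 to 76.8), 81.8 (70.4 to 94.6) and 68.3 (60.4 to 76.9), and vascular endothelial-like nuclei 108 (84.3 to 137), 120 (94.8 to 149) and 149 (128 to 173). The intervals of the libraries overlapped in each of these classes, although the interval of the ratio left 0 out for MI-DAPA against MI-NS in fibroblast-like nuclei, at 0.36 (0.03 to 0.69), and for MI-DAPA against Sham-NS in vascular endothelial-like nuclei, at -0.46 (-0.89 to -0.05). Within the Slc34a1-led fibroblast-like cluster it did differ by 2-fold, with 103 CPM in MI-DAPA, 74.7 in MI-NS and 163 in Sham-NS and a log2 ratio of -1.12 (-1.75 to -0.50) for MI-NS against Sham-NS, on 45 and 46 UMIs. Per Malat1 UMI, MI-NS against Sham-NS turned negative in cardiomyocyte-like (-0.44) and endocardial-like nuclei (-0.51) and passed 2-fold in vascular endothelial-like nuclei (-1.27). On the same scale MI-DAPA against MI-NS turned positive in cardiomyocyte-like (0.36) and vascular endothelial-like nuclei (0.76) and passed 2-fold in fibroblast-like nuclei (1.09). Among classes with 3 libraries macrophage-like nuclei had the lowest levels, 26.4, 21.2 and 18.8 CPM, and Mpdz was the gene nearest in pattern, at 0.87.

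**Figure D4:**
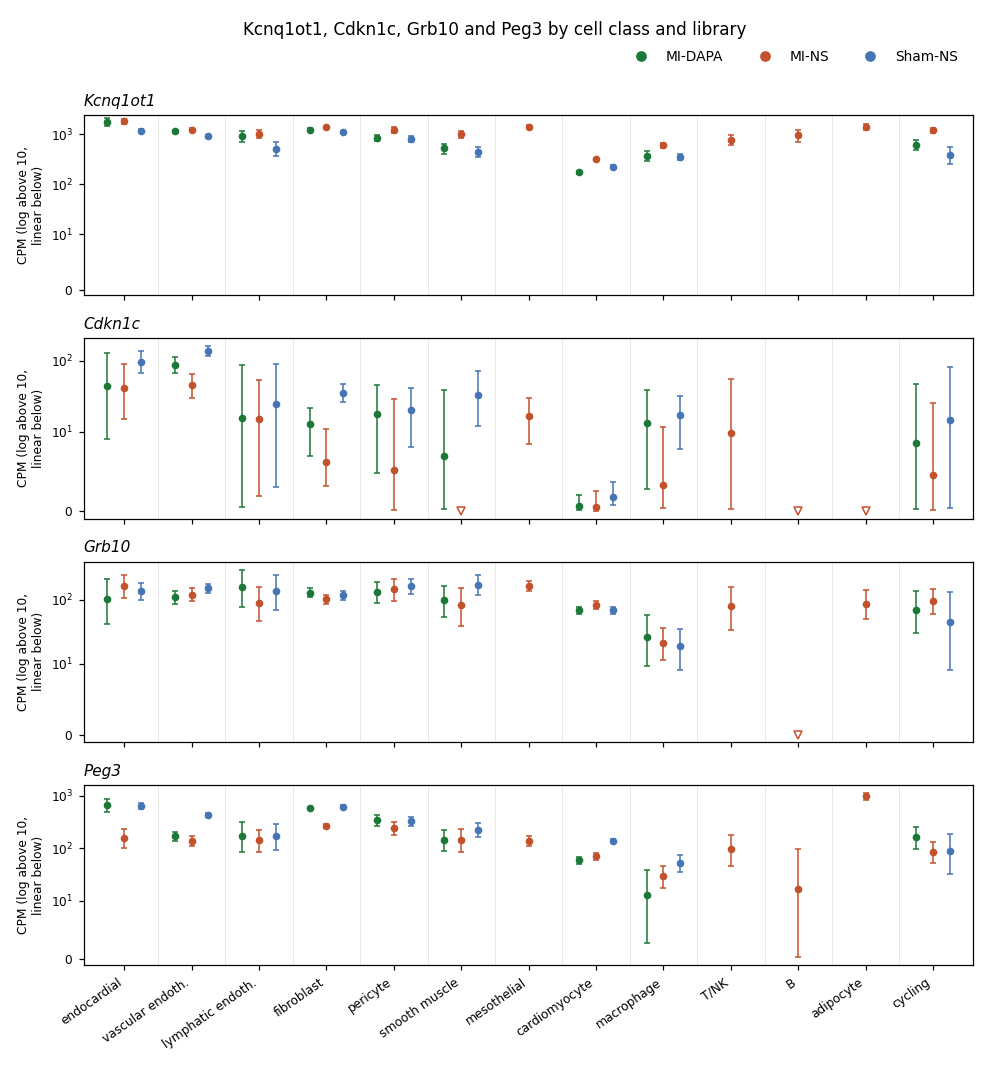
Levels of Kcnq1ot1, Cdkn1c, Grb10 and Peg3 in CPM (axis logarithmic above 10 and linear below) in each cell class with at least 50 nuclei in a library, for MI-DAPA, MI-NS and Sham-NS; bars are 95% Poisson intervals and open triangles mark 0 UMIs. Peg3 of MI-NS lies below both other libraries in endocardial-like (158 CPM) and fibroblast-like (270.5 CPM) nuclei, Cdkn1c of MI-NS does so in vascular endothelial-like nuclei (44.8 CPM), and no Grb10 ratio of a class with 50 UMIs reaches 2-fold.

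Counted together in fibroblast-like nuclei, 8 of the 10 genes were measurable for MI-DAPA against MI-NS. H19 and Plagl1 were at least 2-fold lower and Peg3 at least 2-fold higher, so 3 of 8 were 2-fold apart, where 4.46% of 8185 measurable genes were; the choice of genes used H19 in this contrast, so nothing is read from that count. The median log2 ratio was -0.58 over the 8 and -0.04 over all measurable genes. For MI-NS against Sham-NS, 9 were measurable and 6 of 9 were 2-fold apart, where 13% of 8416 genes were. H19, Rian, Mirg and Plagl1 were higher and Cdkn1c and Peg3 lower, with a median of 0.87 over the 9 and 0.11 over all. This count holds H19 of MI-NS, the level that the choice of genes was set against, so nothing is read from it either. It was 3 under a stricter filter on nuclei, 2 after thinning, 2 with at least 200 UMIs, 1 without the Comp-led cluster and 3 per Malat1 UMI. The count of 3 for MI-DAPA against MI-NS was 1, 1, 1, 0 and 3 under these settings. For MI-DAPA against Sham-NS, 1 of 7 was 2-fold apart, namely Cdkn1c, where 6.64% of genes were. The 3 contrasts share libraries and are not independent of each other.

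Other classes gave smaller sets. In vascular endothelial-like nuclei 2 of 6 were 2-fold apart for MI-DAPA against MI-NS (background 4.52%) and 4 of 6 for MI-NS against Sham-NS (8.88%), with Meg3 and Rian higher and Cdkn1c and Peg3 lower in MI-NS. In cardiomyocyte-like nuclei it was 2 of 5 (5.09%) and 2 of 5 (9.67%), Meg3 and Rian in both. Endocardial-like nuclei had 2 of 5 (12.1%), Meg3 lower and Peg3 higher in MI-DAPA, and 1 of 6 (12.4%), Peg3 lower in MI-NS. Pericyte-like nuclei had 1 of 5 (4.92%) and 2 of 5 (7.84%), and macrophage-like nuclei 1 of 2 (5.6%) and 1 of 2 (7.45%), all of them genes of the Meg3 domain. Smooth muscle-like nuclei had 2 of 3 (17.9%) and 2 of 3 (21.2%), lymphatic endothelial-like nuclei 1 of 2 (8.43%) and 1 of 2 (10.2%), and cycling-like nuclei 1 of 2 (10.7%) and 2 of 2 (13.8%). For MI-DAPA against Sham-NS it was 1 of 5 in vascular endothelial-like (4.06%), 1 of 4 in cardiomyocyte-like (4.21%) and 2 of 6 in endocardial-like nuclei (7.6%), namely a lower Peg3 in the first pair and a higher H19 and lower Meg3 in the last. None was 2-fold apart in that contrast of 5 in pericyte-like (3.15%), 3 in smooth muscle-like (5.95%), 2 in macrophage-like (3.56%), 1 in lymphatic endothelial-like (5.22%) and 1 in cycling-like nuclei (12.5%). Counts of 1 to 6 genes are too small to set a share beside these backgrounds with any precision.

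**Figure D5:**
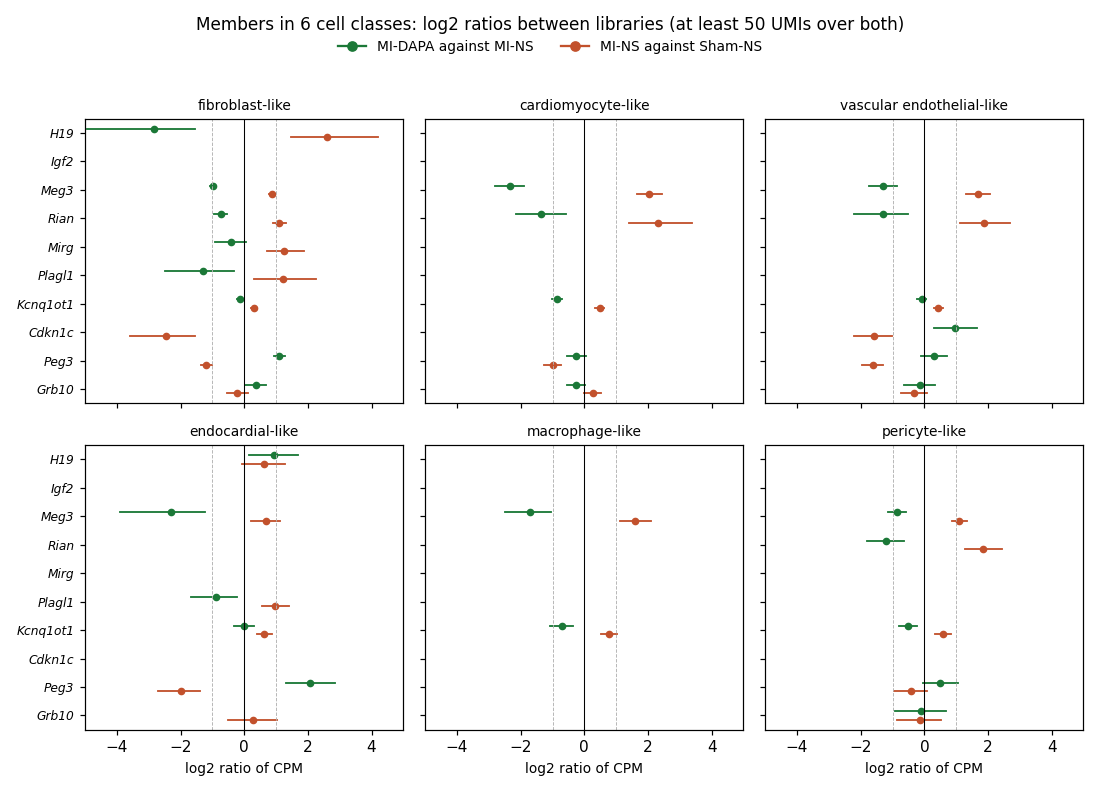
Log2 ratios of CPM for the 10 genes in 6 cell classes, MI-DAPA against MI-NS and MI-NS against Sham-NS, with 95% conditional binomial intervals; dashed lines mark 2-fold, and genes with under 50 UMIs over both libraries are not drawn. The first ratio of Meg3 is negative and the second positive in all 6 classes, while Peg3 and Cdkn1c run the other way in fibroblast-, endocardial- and vascular endothelial-like nuclei where drawn.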

How the data were processed

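The authors deposited matrices of UMI counts for 32285 genes, 1 per library, made with Cell Ranger 6.0.1 per the file headers from Chromium 3' v3.1 nuclei. The build was mm10 and Seurat was used, per the submitters' processing notes; its role, the annotation release and whether introns were counted are not given in the sources used here. No per-sample column was left unused.

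Nuclei with at least 300 genes and at most 10% mitochondrial UMIs were kept (5372 of 6354 barcodes in MI-DAPA, 7065 of 7725 in MI-NS and 8296 of 9744 in Sham-NS). Scrublet in scanpy 1.11.5 called 1, 0 and 0 doublets, so it did not serve to remove them, and clusters with a median doublet score over 0.1, a limit set after seeing the data, were left out as mixed (10.1%, 11.7% and 15.5% of nuclei). Counts were scaled to 10000 UMIs and log-transformed. Leiden clusters (leidenalg 0.10.2, resolution 1, 2000 variable genes, 30 components, 15 neighbours, no batch correction) were built without the 10 genes and the other imprinted genes. They were named from 19 marker sets with at least 3 markers at least 2-fold up. Vcan and Fn1 were not counted against fibroblast clusters, which was set after seeing the data.

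For each class and library the UMIs of its nuclei were summed and divided by their total (CPM), and 0.5 UMI was added to both sums of a ratio. No test was made, as each group had 1 library. The code was tested on simulated data. The members, marker sets, lists and alternatives were chosen with earlier results of these data known. The 10 genes are named in every class. Of 61 other imprinted genes and 19 IGF2 partners or p57 relatives, up to 4 per class and contrast are named, by size, where measurable and at least 2-fold apart. For each member with at least 500 UMIs, and H19, the 5 genes outside both lists with the highest correlation were found. Coordinates are from GENCODE M21 (mm10), and microRNAs and promoters from RefSeq, where 8 of the 10 genes had a promoter entry. TMM factors came from edgeR 4.0.16 in R 4.3.3 as an alternative scaling only. Intervals used scipy 1.17.1.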

Additional observations from a re-analysis of the deposited data

Results flagged for a closer look

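H19 differed in direction between cell classes for MI-DAPA against MI-NS. In endocardial-like nuclei the log2 ratio was 0.92, with 427 CPM in MI-DAPA and 227 CPM in MI-NS, and in fibroblast-like nuclei it was -2.85, with 3.65 CPM in MI-DAPA and 29.3 CPM in MI-NS. The counting interval of each left 0 out. With classes read from the marker level of each nucleus, however, the endocardial-like difference was absent. The difference between the classes was not tested, and H19 in these classes is what the genes were picked for.

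Kcnq1ot1 differed in direction between classes for MI-DAPA against Sham-NS. In lymphatic endothelial-like nuclei the log2 ratio was 0.84, with 903 CPM in MI-DAPA and 504 CPM in Sham-NS, and in cardiomyocyte-like nuclei it was -0.38, with 172 CPM in MI-DAPA and 224 CPM in Sham-NS. This difference was not tested either.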

How the results depend on the processing

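No paired analysis was possible because each group has 1 library, and no replicate could be left out. H19 in fibroblast-like nuclei kept its direction for MI-DAPA against MI-NS under the 12 alternatives run, with log2 ratios between -4.35 and -1.78. For MI-NS against Sham-NS (2.60) it was 0.77 with class by marker level, 4.63 without the 10 nuclei richest in H19, 4.47 with the macrophage-like level subtracted and 0.57 without the Comp-led cluster. The 10 nuclei were left out of each library, and fewer than 10 held H19 in MI-DAPA and in Sham-NS. No H19 UMI was then left there, so the direction of that alternative (-4.35 and 4.63) was fixed in advance. Subtraction left little H19 in Sham-NS, where fibroblast-like nuclei stood at 4.51 CPM and macrophage-like nuclei at 3.77. The endocardial-like excess of H19 (5.80) was 4.70 with class by marker level and 3.60 without the 10 richest endocardial-like nuclei of each library. No other nuclei were left out there, and 13, 16 and 25 endocardial-like nuclei of MI-DAPA, MI-NS and Sham-NS had H19. The value of 3.60 is thus lowered by its design. TMM was not run for this excess and subtraction gave no value. Of fibroblast-like counts of genes 2-fold apart, that for MI-DAPA against MI-NS (3) was 1 under the stricter nucleus filter, 1 after thinning, 1 with at least 200 UMIs and 0 without the Comp-led cluster. The count of 6 for MI-NS against Sham-NS became 3, 2, 2 and 1 under the same settings and 3 per Malat1 UMI. Thinning and the 200-UMI minimum leave fewer measurable genes; the cause of the other changes was not tested. Of 534 values of single genes and contrasts, 435 moved by less than their counting interval and 99 by more; none with at least 2-fold turned direction. Per Malat1 UMI 39 of 48 moved. TMM scaling shifted all log2 ratios of a contrast alike, by -0.24 to 0.27 in the 5 classes tried. The Comp-led and Malat1 alternatives were chosen after seeing the data.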

Other observations

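In fibroblast-like nuclei 4 of 24 measurable other imprinted genes were 2-fold apart between MI-DAPA and MI-NS, where 4.46% of all measurable genes were, 1 higher and 3 lower, with a median log2 ratio of -0.19 (-0.04 over all genes). For MI-NS against Sham-NS it was 4 of 23, where 13% of all were, 3 higher and 1 lower, with a median of -0.00 (0.11 over all genes). Ppp1r9a, which encodes neurabin, stood at 167 CPM in MI-DAPA, 77.8 in MI-NS and 241 in Sham-NS, the same order as Peg3, with log2 ratios of 1.10 for MI-DAPA against MI-NS and -1.63 for MI-NS against Sham-NS. Sgce, which encodes epsilon-sarcoglycan, stood at 22.8 CPM in MI-DAPA, 52.4 in MI-NS and 21.8 in Sham-NS, and Tssc4, which lies in the Kcnq1ot1 domain, at 17.3, 38.9 and 9.01 CPM. Begain, next to the Meg3 domain, stood at 34.7 CPM in MI-DAPA, 40.0 in MI-NS and 12.8 in Sham-NS. Igf2r, the maternally active receptor that clears IGF2, was higher in MI-DAPA, at 219 CPM, than in Sham-NS, at 102 CPM, a log2 ratio of 1.10 (0.79 to 1.41). In vascular endothelial-like nuclei Mest, a paternally active hydrolase gene, stood at 52.5 CPM in MI-DAPA, 59.8 in MI-NS and 23.3 in Sham-NS.

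Of the partners of IGF2 and relatives of p57, 3 of 13 were 2-fold apart in fibroblast-like nuclei between MI-DAPA and MI-NS, all lower, and 5 of 14 for MI-NS against Sham-NS, 4 higher and 1 lower, where 4.46% and 13% of all measurable genes were. Cdkn1a, which encodes the kinase inhibitor p21 and is a relative of Cdkn1c, ran the other way to it: it stood at 29.2 CPM in MI-DAPA, 60.3 in MI-NS and 18.8 in Sham-NS. Grb14, the relative of Grb10, stood at 60.2 CPM in MI-DAPA, 106 in MI-NS and 13.5 in Sham-NS, with log2 ratios of 2.13 (1.39 to 2.99) for MI-DAPA and 2.93 (2.27 to 3.76) for MI-NS, each against Sham-NS. Binding proteins that carry IGFs differed most in vascular endothelial-like nuclei, where Igfbp5 stood at 46.4 CPM in MI-DAPA, 120 in MI-NS and 15.5 in Sham-NS and Igfbp3 at 47.9, 133 and 28.5 CPM. In endocardial-like nuclei Igfbp5 had the order of H19, with 604 CPM in MI-DAPA, 281 in MI-NS and 99.9 in Sham-NS. The log2 ratio of MI-DAPA against Sham-NS was 2.59 (1.90 to 3.30), on 41 and 33 UMIs.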
